A study of Drosophila melanogaster with 24 samples.

Results

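The septate junction genes of the gut epithelium followed here are Ssk, mesh and Tsp2A, which build the smooth septate junction of the gut, and cora, Nrx-IV, dlg1, scrib, l(2)gl, kune and sinu, which are known mainly from the pleated septate junction of ectodermal epithelia or from basolateral polarity. Members were taken by gene symbol, and all 10 were found, among 18009 annotated genes joined over the deposited tables of 24 libraries in 7 groups. All 10 passed the filter on low values, a mean of at least 1 TPM over the libraries of a fit, in every comparison. TPM is a level that accounts for gene length and for the size of the library.

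The study asked how gene expression in the Drosophila melanogaster intestine differs with age and with changes to ADAR, the enzyme that edits adenosine to inosine in double-stranded RNA, or to Zn72D, an RNA-binding protein with a role in that editing. The 3 midgut groups of 4 libraries each were esgts-Adar IR flies at 10 days (Adar knockdown), esgts-lacZ flies at 30 days and esgts-lacZ flies at 10 days. All 12 carry esgts, a temperature-sensitive form of the escargot driver, which acts in intestinal stem cells and enteroblasts, so the knockdown was driven there and lacZ served as the control insert. A further 4 groups of 3 libraries each were Zn72d-IR (Zn72D knockdown) with its WT-Zn72d control, and E374A-OE (overexpression of ADAR carrying E374A) beside its WT-E374A control. The labels give no age or driver for these 12, the design text calls the manipulations midgut-specific, and the tissue label is whole organism, whereas the extraction text, the same for every library, speaks of FACS sorting of stem cells from midguts. Nothing states that the libraries of a group came from separate animals or pools, so a p-value here sets a difference only against the spread among the deposited libraries, part of which may be technical.

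Septate junctions are bands of cross-bridges between neighbouring epithelial cells that limit leakage between them, the counterpart in insects of the vertebrate tight junction. In the midgut, which is of endodermal origin, the junction is of the smooth form and rests on 3 membrane proteins that need each other for their place in the membrane: the small membrane protein Ssk (Snakeskin), the single-pass protein Mesh and the tetraspanin Tsp2A. Enterocytes, the absorptive cells, have well-formed smooth junctions, and loss of these proteins in the fly gut is known to leave a leaky barrier and raised stem cell proliferation. The pleated form instead uses the neurexin Nrx-IV, the FERM-domain protein Coracle (cora) and the claudin-family proteins Kune-kune (kune) and Sinuous (sinu), while Discs large (dlg1), Scribble (scrib) and Lethal giant larvae (l(2)gl) are scaffolds of the basolateral membrane and tumour suppressors.

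The libraries were checked before the junction genes were read. Adar had 16.05, 11.2, 23.5 and 7.78 TPM in the Adar knockdown libraries, against 38.1, 19.5, 21.3 and 23.0 TPM in 30-day lacZ and 29.2, 37.5, 45.7 and 38.6 TPM in 10-day lacZ. Zn72D had 10.6, 17.9 and 15.999 TPM in its knockdown and 18.6, 18.1 and 16.9 TPM in its control, so the libraries labelled knockdown 1 and 3 lay below the control range and knockdown 2 inside it. Adar had 17.2, 14.5 and 15.8 TPM in the libraries labelled E374A and 879, 801 and 31.5 TPM in the libraries labelled E374A control, so the high level stood under the control label. The names of the deposited files assign these libraries the opposite way from their titles, and the groups are called below as the titles label them. The library labelled E374A control 3 stood apart: its mean Spearman correlation over 9072 genes was 0.519 with its own group and 0.948 with the midgut libraries. In each of the 3 pairs of labelled E374A and Zn72D control libraries of the same number, all 10 members had read coverage equal within 0.1%, as did between 82.4% and 82.6% of all genes, so these groups share reads. Estimated aligned bases ran from 3.40 to 6.68 gigabases in the midgut libraries and from 5.57 to 7.62 in the 11 libraries other than labelled control 3 that carry the whole-organism label. The driver gene esg had between 189 and 802 TPM in the midgut libraries. Of 20 enterocyte markers, caup, Cad99C and brv1 stayed under 1 TPM in all 12 midgut libraries, where the list summed to between 623 and 1814 TPM, against 129065 to 187299 TPM in those 11 libraries.

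Among the 10 genes, Ssk had the highest mean level in every group but 10-day lacZ, where l(2)gl and cora were above it. By group mean, Ssk ran from 924 ± 80.4 TPM (SD, n = 3) in Zn72D knockdown, through 724 ± 163 TPM (n = 3) in the labelled E374A controls, 586 ± 88.9 TPM (n = 3) in Zn72D controls, 578 ± 87.2 TPM (n = 3) in labelled E374A, 503 ± 352 TPM (n = 4) in Adar knockdown and 386 ± 96.5 TPM (n = 4) in 30-day lacZ, to 113 ± 12.7 TPM (n = 4) in 10-day lacZ. The mean of the labelled E374A controls includes labelled control 3, with 538 TPM, and was 817 ± 31.1 TPM (SD, n = 2) without it. Of these neighbours only the first pair and the last pair had ranges that did not overlap, and the Zn72D control and labelled E374A values rest on shared reads. The deposited tables of the midgut and of the 11 other libraries were made in different formats, so levels set across them are descriptions without a test.

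**Figure D1:**
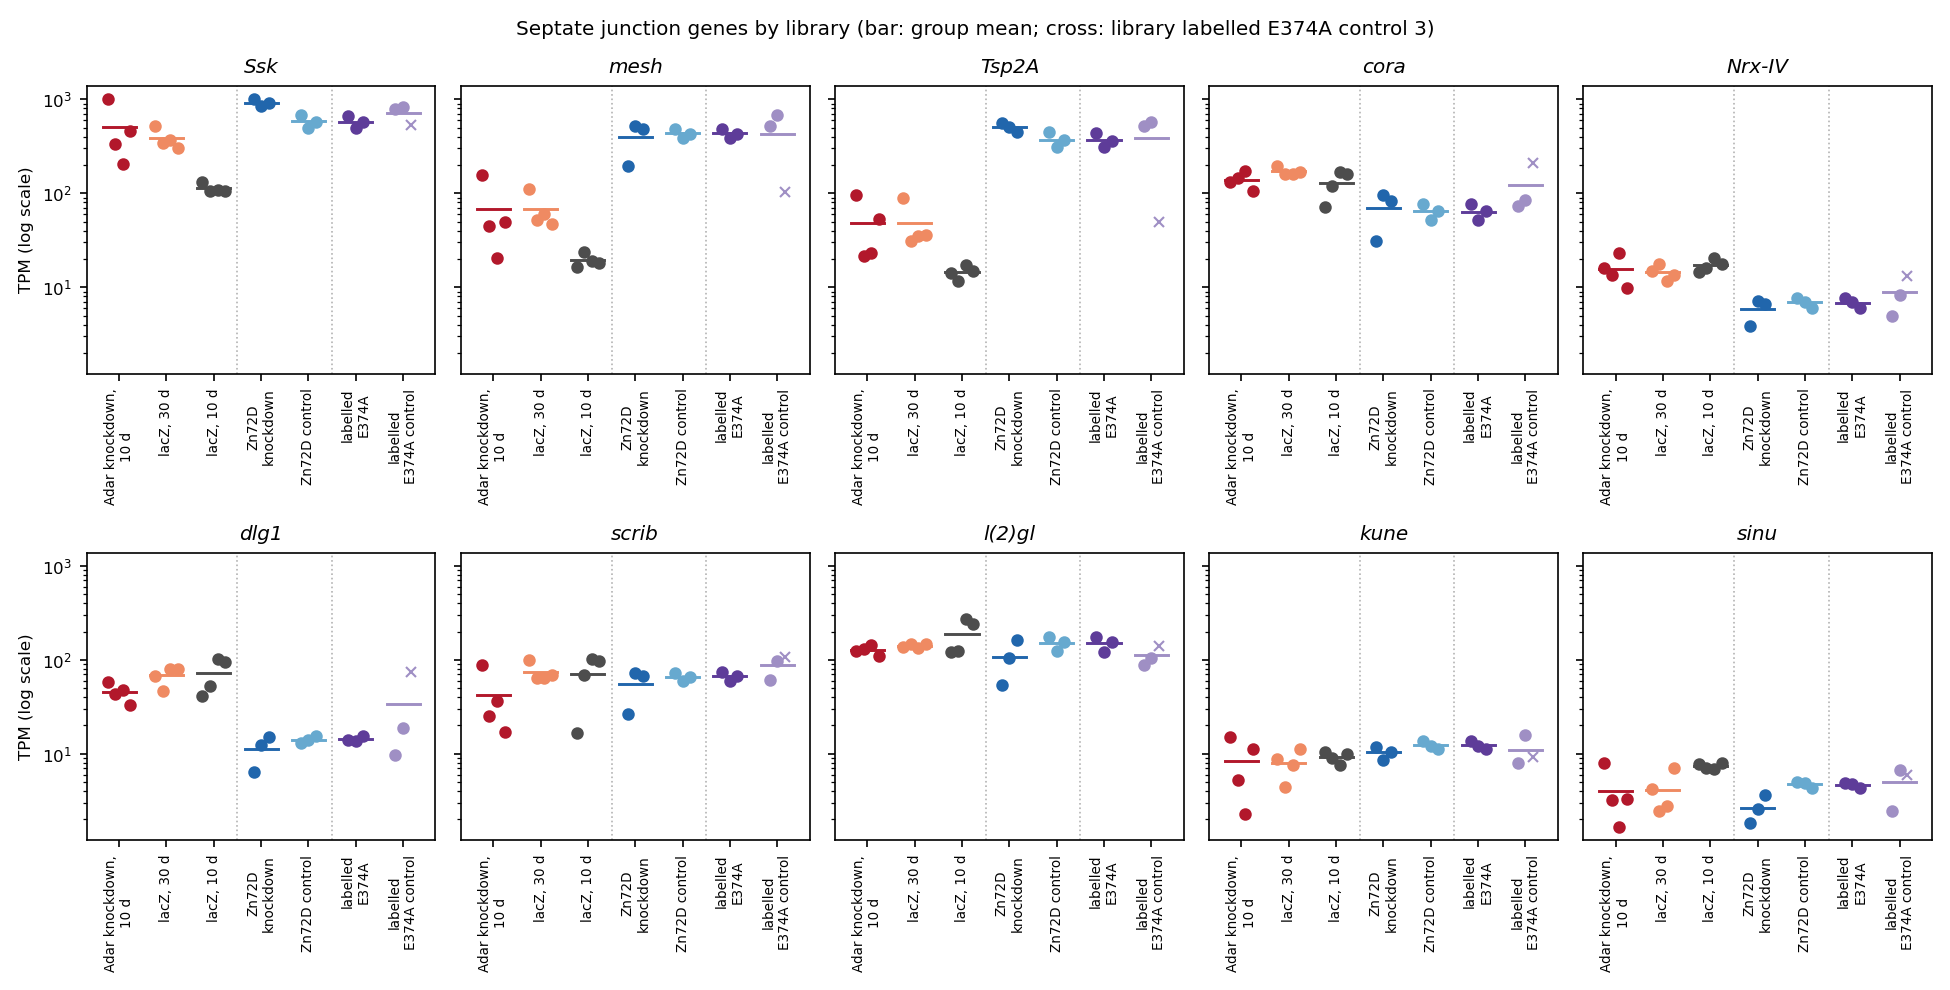
TPM of each of the 10 genes (log scale) in every library, by group; points are libraries, bars are group means, and the cross is the library labelled E374A control 3. Ssk, mesh and Tsp2A have their lowest group means in 10-day lacZ, where Ssk lies between 105 and 132 TPM, while the other 7 genes overlap between the midgut groups.

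Age was compared first. Ssk, mesh and Tsp2A rose together, with 30-day means 3.40, 3.49 and 3.31 times the 10-day means, while none of the other 7 members passed the test. Ssk had 524, 343, 373 and 303 TPM in 30-day lacZ, against 132, 106, 110 and 105 TPM in 10-day lacZ. Every 30-day library lay above every 10-day library, with the closest pair 303 against 132 TPM. On log2(TPM + 1) the fold change was 1.73 ± 0.36 (SE; 95% interval 0.95 to 2.51; limma with Benjamini-Hochberg adjustment over 8754 genes, adjusted p = 0.00912).

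mesh had 112, 52.4, 60.2 and 46.8 TPM in 30-day lacZ, against 16.6, 23.6, 19.3 and 18.2 TPM in 10-day lacZ. The groups did not overlap, and 30-day library 1 stood far above the rest. mesh had a log2 fold change of 1.68 ± 0.46 (limma, adjusted p = 0.0262). Tsp2A had 90.1, 31.4, 34.7 and 36.1 TPM in 30-day lacZ, against 14.2, 11.5, 17.3 and 15.0 TPM in 10-day lacZ. Here too the groups were apart and library 1 was the high one. Tsp2A had a log2 fold change of 1.53 ± 0.44 (limma, adjusted p = 0.0295). For each of the 3 genes the exact two-sided permutation test of TPM gave p = 0.0286, the smallest that 4 against 4 libraries allow.

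Of the 10 members 3 were thus called higher and 0 lower, against a background of 19.6% of all tested genes called, 4.23% higher and 15.4% lower. The 3 smooth genes were also the members whose groups did not overlap, as in 28.7% of all genes in either direction and 5.76% in the higher one. Scaling matters to the background: over all genes 370 were called higher and 1346 lower as deposited, but 454 higher and 327 lower with median-ratio scaling, which moved the median log2 fold change of all genes from -0.32 to -0.05. Relative to the median as deposited, Ssk was 2.05 higher on the log2 scale, and all 3 smooth genes kept their call under the other scaling. Ssk also kept it when any single library was left out. Without 30-day library 1, mesh had a log2 fold change of 1.41 (limma, adjusted p = 0.0601) and Tsp2A of 1.19 (limma, adjusted p = 0.0655), and neither then passed. mesh also missed the threshold without 30-day library 3 or 10-day library 3 or 4, with adjusted p up to 0.0625 by limma, and Tsp2A without any of these or without 30-day library 4 or 10-day library 2, with adjusted p between 0.0510 and 0.0655 by limma. Without library 1 of both groups, Ssk alone was called (log2 fold change 1.65, limma, adjusted p = 0.0247).

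The polarity scaffolds gave no called change with age. l(2)gl had 136, 147, 135 and 149 TPM in 30-day lacZ, against 121, 125, 270.3 and 239.5 TPM in 10-day lacZ (log2 fold change -0.32 ± 0.25, limma, adjusted p = 0.352). The 10-day libraries fell into a low pair and a high pair around the narrow 30-day values. dlg1 averaged 68.5 ± 15.8 TPM in 30-day lacZ and 72.8 ± 30.2 TPM in 10-day lacZ (SD, n = 4 each), with the same split in the 10-day group. scrib had 99.4, 64.2, 64.1 and 68.6 TPM in 30-day lacZ, against 16.4, 69.2, 103 and 96.2 TPM in 10-day lacZ. Its lowest and highest values were both in 10-day lacZ, and the interval of its log2 fold change ran from -0.86 to 1.49.

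The pleated junction genes were likewise not called. cora, the linker to the cytoskeleton, averaged 172 ± 15.9 TPM in 30-day lacZ and 130.3 ± 45.4 TPM in 10-day lacZ (SD, n = 4 each; log2 fold change 0.47, limma, adjusted p = 0.191). Nrx-IV averaged 14.5 ± 2.42 TPM in 30-day lacZ and 17.1 ± 2.57 TPM in 10-day lacZ, and kune 7.99 ± 2.79 TPM in 30-day lacZ and 9.27 ± 1.25 TPM in 10-day lacZ. sinu had 4.18, 2.48, 2.80 and 7.01 TPM in 30-day lacZ, against 7.79, 7.12, 6.97 and 7.91 TPM in 10-day lacZ. In 3 of 4 30-day libraries sinu lay below every 10-day value, and the difference missed the threshold (log2 fold change -0.80 ± 0.37, limma, adjusted p = 0.132). The 7 had a median log2 fold change of -0.23, beside -0.32 over all genes.

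**Figure D2:**
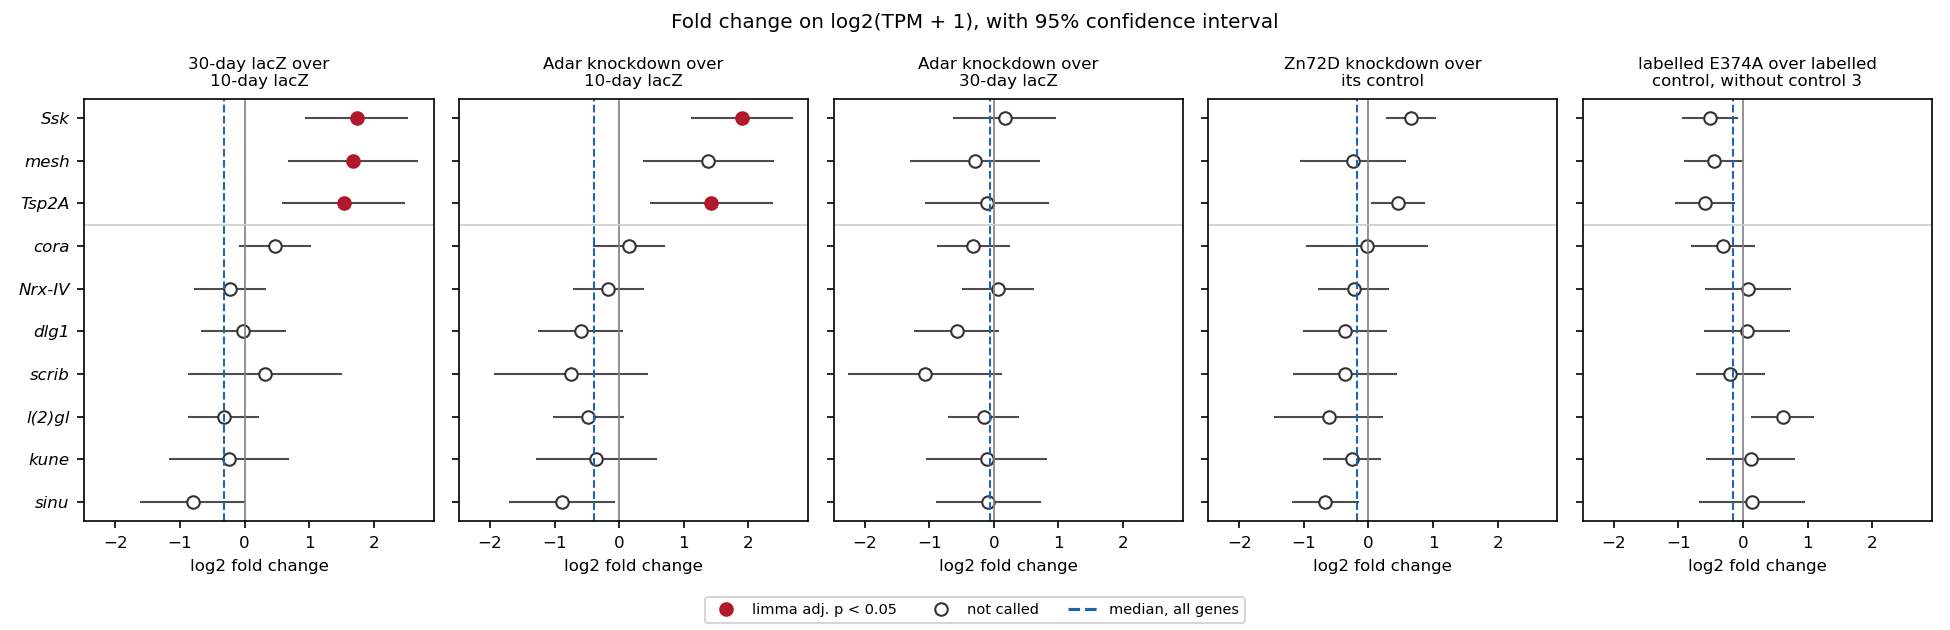
log2 fold change on log2(TPM + 1) of each member in 5 comparisons, with 95% confidence intervals from limma; filled points passed an adjusted p of 0.05, and the dashed line is the median of all genes tested. The filled points are Ssk, mesh and Tsp2A with age and Ssk and Tsp2A with Adar knockdown.

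With Adar knockdown, Ssk and Tsp2A rose relative to 10-day lacZ, and mesh stood at the threshold. Ssk had 1007, 336, 206 and 463 TPM in Adar knockdown, against 132, 106, 110 and 105 TPM in 10-day lacZ. The groups were apart, but the knockdown libraries spread widely among themselves, with library 1 highest and library 3 lowest. Ssk had a log2 fold change of 1.90 ± 0.36 (95% interval 1.12 to 2.68, limma, adjusted p = 0.00870), and it stayed called when any single library was left out. Tsp2A had 96.9, 21.6, 23.2 and 53.3 TPM in Adar knockdown, against 14.2, 11.5, 17.3 and 15.0 TPM in 10-day lacZ. All knockdown libraries were above all controls, libraries 2 and 3 only just. Its log2 fold change was 1.43 ± 0.44 (limma, adjusted p = 0.0378).

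mesh had 155, 44.9, 20.4 and 49.6 TPM in Adar knockdown, against 16.6, 23.6, 19.3 and 18.2 TPM in 10-day lacZ. Knockdown library 3 lay inside the control range and the others above it. A log2 fold change of 1.38 ± 0.46 (95% interval 0.39 to 2.37) had a limma adjusted p of 0.0502, so mesh was not called. It was called, with a limma adjusted p of 0.0495, under median-ratio scaling, and with 0.0138 when knockdown library 3 was left out. Of the 10 members 2 were therefore called higher, against 19.7% of all genes called, 3.75% higher and 15.9% lower, and their groups did not overlap, as in 22.1% of genes in either direction and 3.91% in the higher one. Over all genes 328 were called higher and 1396 lower as deposited, against 395 and 170 with median-ratio scaling. The call of Tsp2A depended on single libraries: its limma adjusted p was between 0.0665 and 0.0896 without knockdown library 1, without knockdown library 4, or without 1 of 10-day libraries 2, 3 and 4, and without knockdown library 1 its log2 fold change was 1.01.

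The other 7 members were not called, and 6 of their 7 log2 fold changes were below 0, at a median of -0.48 beside -0.39 for all genes. sinu had 8.05, 3.26, 1.65 and 3.26 TPM in Adar knockdown, against 7.79, 7.12, 6.97 and 7.91 TPM in 10-day lacZ (log2 fold change -0.89 ± 0.37, limma, adjusted p = 0.0975). Knockdown library 1 alone reached the control level, and without it sinu was called lower (log2 fold change -1.21, limma, adjusted p = 0.0316). scrib had 89.0, 24.96, 36.1 and 17.0 TPM in Adar knockdown, against 16.4, 69.2, 103 and 96.2 TPM in 10-day lacZ. Library 1 is the exception on both sides, highest in the knockdown and lowest among the controls. Without library 1 of both groups, scrib (log2 fold change -1.78), dlg1 (-0.95) and sinu (-1.19) were called lower by limma, with adjusted p values of 0.00439, 0.0382 and 0.0358, and of the smooth genes only Ssk was still called, with Tsp2A at a log2 fold change of 1.005 and mesh at 0.79 (limma, adjusted p = 0.0890 and 0.119). Leaving out 10-day library 1 alone was enough to call dlg1 and scrib lower (limma, adjusted p = 0.0470 and 0.0364). The 10-day group then still held libraries 3 and 4, in which long transcripts were high, as described below. All these calls rest on gene rows. For scrib, loci assembled from the reads, described below, read 110, 104 and 82.4 TPM in Adar knockdown libraries 2, 3 and 4. In 10-day lacZ the scrib locus lay between 78.8 and 136 TPM. dlg1 averaged 45.5 ± 10.3 TPM in Adar knockdown and 72.8 ± 30.2 TPM in 10-day lacZ, and l(2)gl 128 ± 14.9 TPM in Adar knockdown and 189 ± 77.1 TPM in 10-day lacZ (SD, n = 4 each).

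Adar knockdown at 10 days was then set against lacZ at 30 days, both of which had been compared with the same 10-day libraries. None of the 10 members was called by limma, and 0.468% of all genes were called. An unadjusted limma p under 0.05 was found for 0 of the 10 and for 1031 of 8754 genes. No member had groups without overlap, as 7.35% of all genes had in either direction and 3.28% in the higher one. Ssk averaged 503 ± 352 TPM in Adar knockdown and 386 ± 96.5 TPM in 30-day lacZ (SD, n = 4 each), with a 95% interval of the log2 fold change from -0.61 to 0.95. mesh averaged 67.6 ± 60.0 TPM in Adar knockdown and 67.8 ± 29.9 TPM in 30-day lacZ (interval -1.29 to 0.70). Tsp2A averaged 48.8 ± 35.3 TPM in Adar knockdown and 48.1 ± 28.1 TPM in 30-day lacZ (interval -1.05 to 0.83). These intervals leave room for a difference of about 1 on the log2 scale in mesh and Tsp2A, so the groups are not shown to be alike. Of the 10, scrib had the lowest value, with a log2 fold change of -1.06 (interval -2.24 to 0.11).

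The level of the 3 smooth genes relative to the other 7 members, which hold both pleated junction genes and the polarity scaffolds, can be read within each library. Scaling cancels there, but a deviation by transcript length, described below, does not. The summed TPM of the 3 smooth genes over that of the other 7 was 2.85, 1.09, 0.581 and 1.96 in Adar knockdown, 1.38, 0.963, 1.01 and 0.773 in 30-day lacZ, and 0.576, 0.357, 0.215 and 0.221 in 10-day lacZ. All 8 libraries of the first 2 groups were above all 4 of 10-day lacZ, by a narrow gap for knockdown library 3 against 10-day library 1. Long transcripts were high in 10-day libraries 3 and 4, which had the lowest ratios. The part of transcript length in the ratio was not tested. Within the smooth genes, Ssk made up between 72.2% and 83.5% of the sum in the 12 midgut libraries. Single ratios spread more widely there: Ssk over mesh ran from 4.504 to 10.1, Ssk over Tsp2A from 5.82 to 15.5 and mesh over Tsp2A from 0.880 to 2.07, and each of the 3 ratios overlapped between the groups. In the 11 other libraries Ssk made up between 40.2% and 57.3%, and the smooth to other ratio was between 4.23 and 12.9. Both upper values are those of Zn72D knockdown library 1, in which long transcripts were low. The library labelled E374A control 3, with 77.8% and 1.23, lay with the midgut libraries on both measures.

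**Figure D3:**
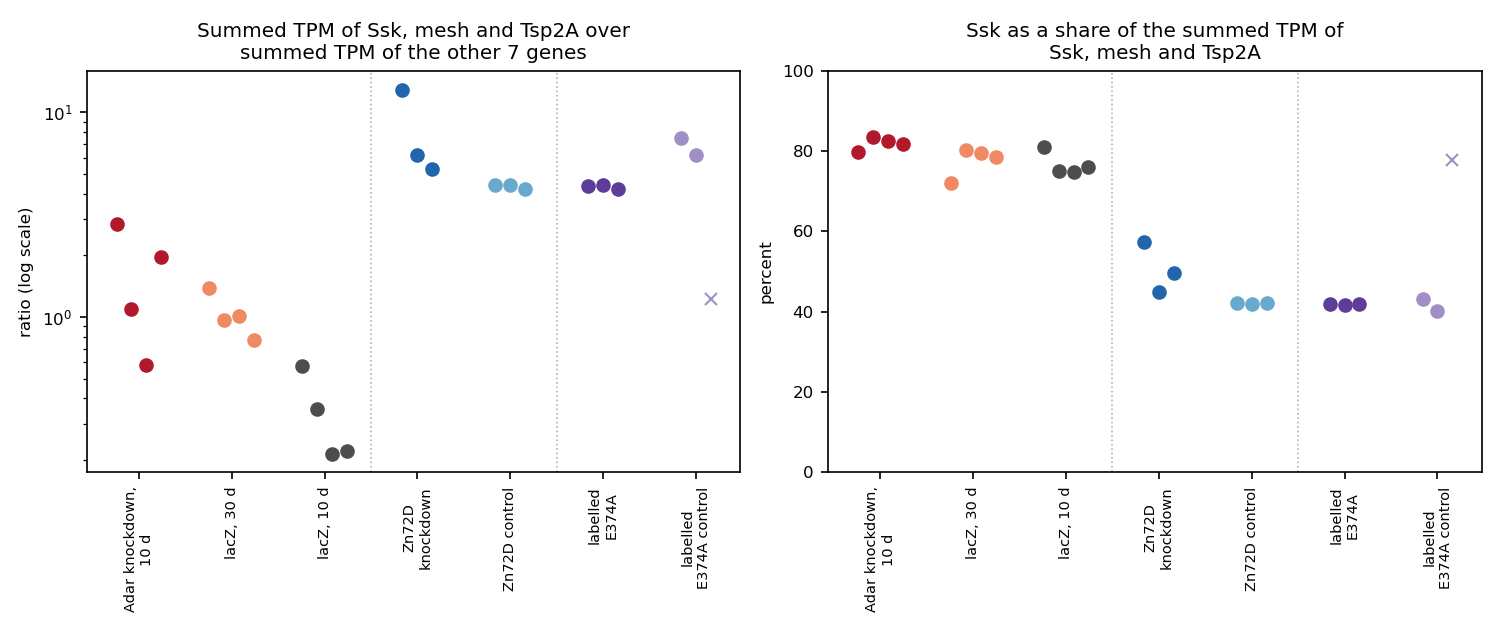
Left, summed TPM of Ssk, mesh and Tsp2A over summed TPM of the other 7 genes (log scale); right, Ssk as a percent of the 3 smooth genes; points are libraries and the cross is the library labelled E374A control 3. The ratio is lowest in 10-day lacZ, between 0.215 and 0.576, and the Ssk share separates the midgut libraries (72.2% to 83.5%) from the 11 others (40.2% to 57.3%).

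Levels of single members moved with transcript length in some libraries. The longest annotated transcripts of Ssk, Tsp2A and kune have 898, 1002 and 1060 bases, that of sinu 2065, and those of mesh, Nrx-IV, l(2)gl, cora, dlg1 and scrib between 4803 and 9438. In Zn72D knockdown library 1, Ssk, Tsp2A and kune were 0.19, 0.20 and 0.30 above the mean of the other knockdown libraries on the log2 scale, while mesh, scrib and cora deviated by -1.36, -1.35 and -1.503. Over 1730 genes of 3000 bases or more, with a group mean of at least 5 TPM, the median deviation of that library was -0.80, against 0.08 over 2223 genes under 1500 bases. In 10-day lacZ library 1 these medians were -0.45 and 0.25, and scrib, the longest member, was lowest at -2.35. Other midgut libraries deviated too. The medians were -0.29 and -0.12 in 10-day library 2, 0.41 and -0.06 in library 3, and 0.32 and -0.09 in library 4. In Adar knockdown libraries 2, 3 and 4 they were 0.09 and -0.17, 0.37 and -0.03, and -0.37 and 0.18. In Adar knockdown library 1 they were -0.07 and 0.09, and there Ssk, mesh and Tsp2A were 1.66, 2.09 and 1.66 above the rest of the group. This was not particular to the smooth genes, as scrib, kune and sinu deviated by 1.80, 1.35 and 1.31 there. dlg1 and Nrx-IV deviated by 0.48 and 0.11, and cora and l(2)gl by -0.06 and -0.05. The part of transcript length in the results was not tested. Among genes under 1500 bases the 95th percentile of the log2 fold change was 1.43 with age, where Ssk had 1.73 and Tsp2A 1.53, and 1.46 with Adar knockdown, where Ssk had 1.90 and Tsp2A, below that percentile, 1.43. Among genes of 3000 bases or more it was 0.88 with age and 0.63 with Adar knockdown, where mesh had 1.68 and 1.38.

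**Figure D4:**
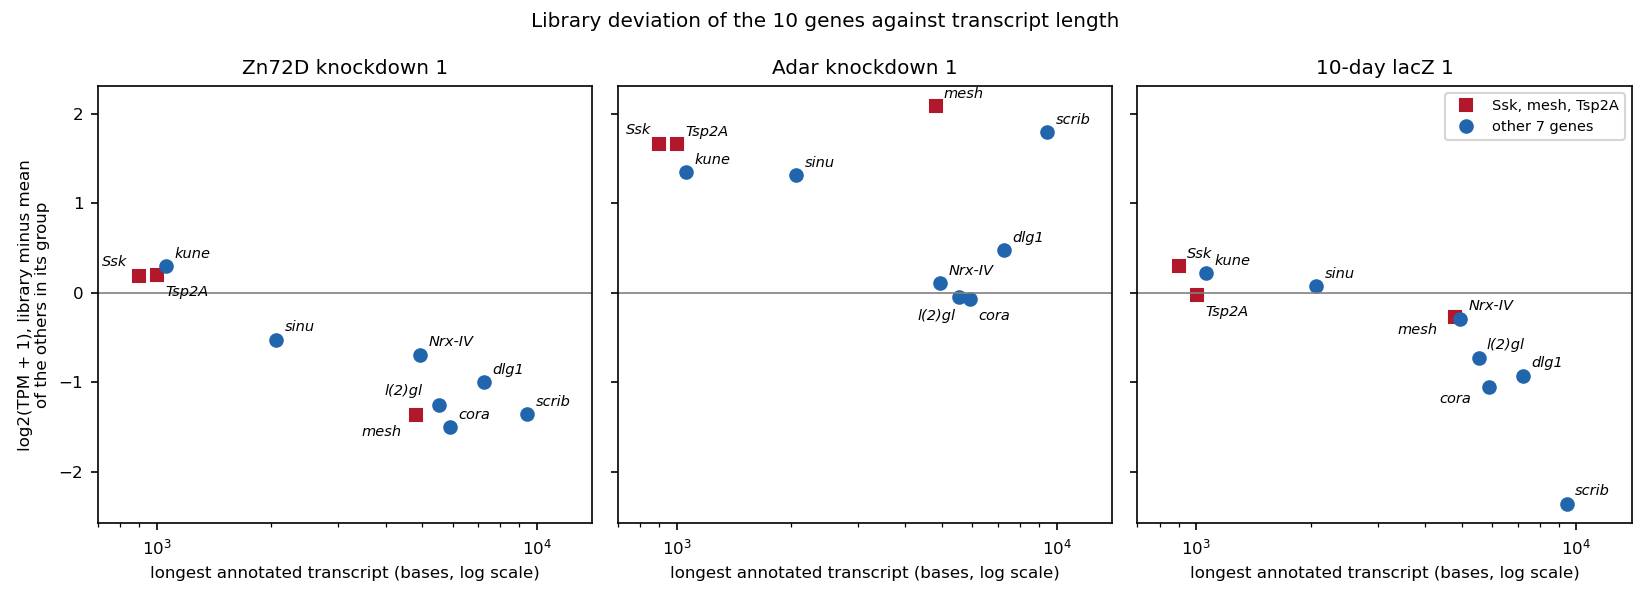
Deviation of each of the 10 genes in 3 libraries from the mean of the other libraries of its group, on log2(TPM + 1), against the length of its longest annotated transcript (log scale); squares are the smooth genes and circles the other 7. In Zn72D knockdown library 1 the genes near 1000 bases are between 0.19 and 0.30 above 0 and those from 4803 bases are below it. In Adar knockdown library 1 mesh is as high as Ssk and Tsp2A, and scrib, kune and sinu lie between 1.31 and 1.80.

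The tables also list loci assembled from the reads, and these gave other values for some members, mainly long ones. The scrib gene row varied between 16.4 and 103 TPM in 10-day lacZ, but the locus assembled over it lay between 78.8 and 136 TPM there, between 87.5 and 128 TPM in 30-day lacZ and between 82.4 and 149.6 TPM in Adar knockdown. With loci in place of gene rows, the log2 fold change of scrib in the knockdown became 0.03. The locus of dlg1 lay between 35.5 and 116 TPM in Adar knockdown, between 76.8 and 142 TPM in 30-day lacZ and between 91.8 and 177 TPM in 10-day lacZ, against 32.9 to 57.5, 46.4 to 80.4 and 41.6 to 102 TPM by gene row, and dlg1 was not called by locus either (log2 fold change -0.32 with age and -0.81 with Adar knockdown, limma, adjusted p = 0.503 and 0.0938). sinu reached 23.8 TPM by locus in an Adar knockdown library, against 8.05 TPM at most by gene row. For mesh the assembled locus covered as little as 42.2% of the gene in a 10-day library, and its log2 fold change by locus was 1.34 with age (limma, adjusted p = 0.114) and 0.92 with Adar knockdown (limma, adjusted p = 0.249). The loci of Ssk and Tsp2A covered the whole gene in all 12 libraries, and both genes kept their calls.

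With age, 2 of 22 tested other septate junction genes rose and 0 fell, where 4.23% of all genes were called higher and 15.4% lower, at a median of -0.33 beside -0.32 for all genes. Both called genes are components of tricellular junctions, where 3 cells meet: Gliotactin (Gli), with 33.8 ± 2.76 TPM in 30-day lacZ and 14.8 ± 8.07 TPM in 10-day lacZ (SD, n = 4 each), and bark, with 5.10 ± 1.17 TPM in 30-day lacZ and 1.05 ± 0.326 TPM in 10-day lacZ. Their log2 fold changes were 1.29 and 1.56 (limma, adjusted p = 0.0357 and 0.0128), and M6, also a tricellular gene, was not called (log2 fold change 0.28). bark was called under median-ratio scaling and without library 1 of both groups; Gli was not called without library 1 (log2 fold change 0.99, limma, adjusted p = 0.0968). hoka, which encodes a further membrane protein of the smooth junction, had 287, 94.7, 110.5 and 129.7 TPM in 30-day lacZ, against 72.5, 54.7, 103 and 101 TPM in 10-day lacZ. Library 1 again led, the groups overlapped, and hoka was not called (log2 fold change 0.80, limma, adjusted p = 0.166).

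With Adar knockdown, 2 of the 22 rose and 3 fell, at a median of -0.49 beside -0.39, a share of calls near the 19.7% of all genes (3.75% higher and 15.9% lower). bark rose (5.17 ± 2.76 TPM in Adar knockdown, 1.05 ± 0.326 TPM in 10-day lacZ; log2 fold change 1.47), as did the immunoglobulin-domain protein Lachesin, Lac, which had 7.88 ± 4.84 TPM in Adar knockdown, 1.27 ± 0.698 TPM in 30-day lacZ and 0.984 ± 0.412 TPM in 10-day lacZ (SD, n = 4 each). Lac was also the 1 gene of the list called against 30-day lacZ (log2 fold change 1.87, limma, adjusted p = 0.0416). In that comparison 0.468% of all genes were called, 0.251% higher. The cell adhesion protein gene Nrg (121 ± 40.8 TPM in Adar knockdown, 230.5 ± 40.4 TPM in 10-day lacZ) and the sodium pump subunit gene nrv2 (69.0 ± 15.6 TPM in Adar knockdown, 137 ± 16.8 TPM in 10-day lacZ) fell, with log2 fold changes of -0.97 and -0.996, and udt, under 5 TPM, fell by 0.82 on the log2 scale. Of these 5, bark and Lac were called under median-ratio scaling and Nrg, nrv2 and udt were not (limma, adjusted p = 0.0862, 0.0522 and 0.186). Without library 1 of both groups all 5 were called, among 2 of the 22 higher and 6 lower. No share of all genes called is given for that fit, so these counts stand without a background.

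The adherens junction and polarity list, the belt apical to the septate junction elsewhere and basal to the smooth junction in the midgut, had 15 tested members, and as over all genes more were called lower than higher in both comparisons. Over all genes 4.23% were called higher and 15.4% lower with age, and 3.75% and 15.9% with Adar knockdown. With age 1 of 15 rose, crb, the apical determinant Crumbs (19.6 ± 3.96 TPM in 30-day lacZ, 9.57 ± 3.55 TPM in 10-day lacZ), and 4 fell: p120ctn, alpha-Cat, Patj and par-6, with log2 fold changes from -1.04 to -0.60. With Adar knockdown 0 rose and 4 fell: sdt, shg, p120ctn and arm. shg, the E-cadherin gene, had 80.0 ± 35.1 TPM in Adar knockdown and 198 ± 66.0 TPM in 10-day lacZ (log2 fold change -1.35, limma, adjusted p = 0.0150), and arm, the beta-catenin gene, 175 ± 50.0 TPM in Adar knockdown and 262 ± 19.2 TPM in 10-day lacZ. Under median-ratio scaling crb kept its call and none of the genes that fell did, and without library 1 of both groups crb was not called (log2 fold change 0.62, limma, adjusted p = 0.148). Of 10 tested integrin adhesion genes 0 were called by limma with age, where 1 had an unadjusted p under 0.05, as had 3301 of 8754 genes. With Adar knockdown 1 fell, mew, an integrin alpha subunit (83.2 ± 30.2 TPM in Adar knockdown, 166 ± 13.4 TPM in 10-day lacZ). mew was not called under median-ratio scaling (log2 fold change -0.70, limma, adjusted p = 0.0726), and 15.9% of all genes were called lower in that comparison.

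**Figure D5:**
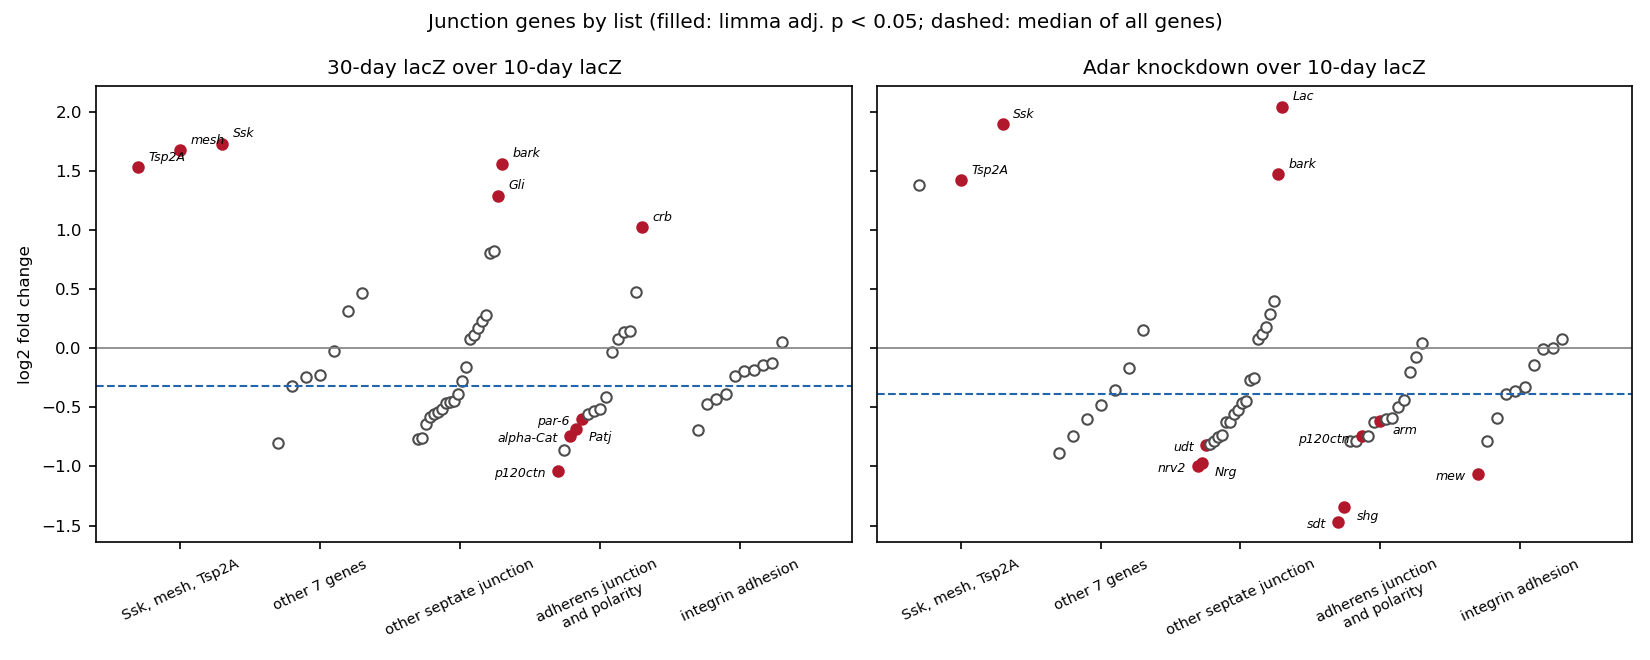
log2 fold change of every tested gene of the member groups and of 3 wider junction lists, with age (left) and with Adar knockdown (right); each point is a gene, filled and named where limma's adjusted p was under 0.05, and the dashed line is the median of all genes. The smooth genes lie between 1.38 and 1.90, and the called members of the 22 other septate junction genes are bark, Gli and Lac above 0 and Nrg, nrv2 and udt below it.

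Some markers of gut cell types were called in the same midgut comparisons as the smooth genes, in which 4.23% of all genes were called higher and 15.4% lower with age, and 3.75% and 15.9% with Adar knockdown. The 16 tested enterocyte markers, called or not, had a median log2 fold change of 1.64 with age, beside -0.32 for all genes. With Adar knockdown their median was 1.997, beside -0.39 for all genes. The 3 smooth genes had medians of 1.68 with age and 1.43 with Adar knockdown. Of the 16 markers 3 were called higher with age (Mur29B, Mal-A1 and Vha100-4), and the remaining 13 did not pass the test. With Adar knockdown 4 were called higher (alphaTry, Jon99Ci, Mal-A1 and Vha100-4) and 1 lower (GATAe), and the remaining 11 did not pass. With Adar knockdown the same 4 were called higher and 0 lower under median-ratio scaling, and without library 1 of both groups Jon99Ci and Mal-A1 were called higher and GATAe and Myo31DF lower. The list summed to between 730 and 1814 TPM in Adar knockdown, between 628 and 1386 TPM in 30-day lacZ and between 623 and 1000 TPM in 10-day lacZ, with overlap between all groups. Of 16 stem cell and enteroblast markers 2 fell with age (mira and E(spl)m3-HLH) and 7 with Adar knockdown, among them esg (292 ± 77.7 TPM in Adar knockdown, 595 ± 207 TPM in 10-day lacZ; SD, n = 4 each), with sums of 1361 to 1751 TPM in Adar knockdown, 1469 to 1912 TPM in 30-day lacZ and 1896 to 3282 TPM in 10-day lacZ. Of 14 enteroendocrine markers 4 rose with age and 1 with Adar knockdown, with sums of 519 to 911 TPM in Adar knockdown, 1083 to 1970 TPM in 30-day lacZ and 316 to 2563 TPM in 10-day lacZ, the last in library 1. Among them Syt4 had 14.5 to 17.6 TPM in Adar knockdown and 0.02 to 0.68 TPM in 10-day lacZ. The ranges of pros, Tk and NPF overlapped between Adar knockdown and 10-day lacZ. Without library 1 of both groups, 10 enteroendocrine markers rose with age and 6 with Adar knockdown, and under median-ratio scaling 2 stem cell and enteroblast markers fell with Adar knockdown. The marker counts without library 1 again stand without a share of all genes beside them. Of 8 tracheal markers 4 stayed under 1 TPM in all 12 midgut libraries, trh among them, and btl reached 9.49 TPM; the list summed to 5.21 to 7.82 TPM in Adar knockdown, 7.33 to 12.1 TPM in 30-day lacZ and 2.68 to 10.9 TPM in 10-day lacZ. Of 9 blood cell markers 3 stayed under 1 TPM in all 12 (Hml, He and NimC1), while srp had 6.93 to 27.0 TPM and crq 27.0 to 58.5 TPM; the list summed to 34.9 to 68.0 TPM in Adar knockdown, 45.2 to 54.3 TPM in 30-day lacZ and 52.1 to 88.0 TPM in 10-day lacZ. srp fell in both comparisons (log2 fold change -0.93 with Adar knockdown and -0.83 with age, limma, adjusted p = 0.0297 and 0.0409). The part of cell composition in the junction results was not tested, and in bulk libraries more cells of a type and more RNA per cell cannot be told apart.

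The genes whose pattern over the 12 midgut libraries was most like the mean standardised level of Ssk, mesh and Tsp2A were, among 6811 genes with a mean of at least 5 TPM and leaving aside genes known only by a CG or CR number, Takl1 (r = 0.91), ringer (0.90), Oatp33Eb (0.90), Tsp42Eb (0.90), mex1 (0.89), Oseg4 (0.88), Cyp4e2 (0.87) and Tsp29Fb (0.86). The r is Pearson's, a description over libraries that share groups and depth. mex1, a gene known for expression in the midgut, had 67.5 ± 29.7 TPM in Adar knockdown, 67.5 ± 15.9 TPM in 30-day lacZ and 21.8 ± 9.37 TPM in 10-day lacZ (SD, n = 4 each). Tsp42Eb and Tsp29Fb encode tetraspanins, as Tsp2A does. On the same measure the other 7 members lay between -0.48 for l(2)gl and 0.27 for kune. Counted from the highest r of the 6811 genes, kune ranked 814, cora 877, scrib 1098 and dlg1 2081. sinu ranked 2334, Nrx-IV 3493 and l(2)gl 4112, so many genes had a lower r than any of the 7.

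Zn72D knockdown, where the level of Zn72D itself was clearly below the controls in library 1 alone, gave no called member. Of the 10, 0 were called by limma, against 2.12% of 8478 genes called, 0.885% higher and 1.24% lower. An unadjusted limma p under 0.05 was found for 3 of the 10 and for 1676 of the 8478 genes. Ssk had 1006, 845 and 921 TPM in Zn72D knockdown, against 678, 501 and 579 TPM in its control. All knockdown libraries were above all controls, as in 28.4% of genes in either direction and 8.53% in the higher one. Ssk had a log2 fold change of 0.66 ± 0.16 (95% interval 0.29 to 1.03, limma, adjusted p = 0.0833). Tsp2A had 556, 514 and 453 TPM in Zn72D knockdown, against 446, 309.9 and 365 TPM in its control, again without overlap (log2 fold change 0.45 ± 0.18, limma, adjusted p = 0.215).

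mesh had 194, 519.6 and 483 TPM in Zn72D knockdown, against 489.6, 386 and 427 TPM in its control. Library 1, in which long transcripts were low, lay below the controls, and the other two lay above or among them. For mesh the log2 fold change was -0.24 ± 0.35 with all libraries and 0.21 ± 0.16 without knockdown library 1 (limma, adjusted p = 0.699 and 0.483). sinu had 1.83, 2.57 and 3.62 TPM in Zn72D knockdown, against 4.98, 4.84 and 4.36 TPM in its control, all knockdown values below all controls (log2 fold change -0.67 ± 0.22, limma, adjusted p = 0.171). Without knockdown library 3 sinu was called lower (log2 fold change -0.85, limma, adjusted p = 0.0469). cora, scrib, dlg1, l(2)gl, Nrx-IV and kune had log2 fold changes between -0.61 and -0.02, and each of these groups overlapped. Genes of 3000 bases or more had a median log2 fold change of -0.35 in this comparison, against -0.00 for genes under 1500 bases. Of 24 other septate junction genes 0 were called by limma and 2 had an unadjusted p under 0.05. With 3 against 3 libraries, an exact permutation p cannot go below 0.1.

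The comparison labelled E374A against its labelled control gave no called member either. With all 6 libraries 0 of 10 were called by limma, and 0.318% of 8808 genes were called, 0.284% higher and 0.0341% lower. An unadjusted limma p under 0.05 was found for 0 of the 10 and for 529 of the 8808 genes. No member had groups without overlap, against 23.7% of genes in either direction and 7.6% in the higher one. Tsp2A had 441, 308 and 362 TPM in labelled E374A, against 524, 576 and 49.5 TPM in the labelled control. The third control, which stands with the midgut libraries, was far below the first pair, and mesh showed the same pattern with 104 TPM there. Without that library 0 of 10 were called by limma, against 3.87% of 8536 genes called, 2.67% higher and 1.19% lower. An unadjusted limma p under 0.05 was found for 4 of the 10 and for 1486 of the 8536 genes. Ssk then had 669, 495 and 571 TPM in labelled E374A, against 795 and 839 TPM in labelled control (log2 fold change -0.51 ± 0.19, limma, adjusted p = 0.206). mesh and Tsp2A had log2 fold changes of -0.46 and -0.58, and l(2)gl of 0.62 (limma, adjusted p = 0.267, 0.180 and 0.178). In all 4 genes the groups were apart, as in 36.4% of all genes in either direction and 12.2% in the higher one. The labelled E374A libraries share reads with the Zn72D controls, so both comparisons use the same values on opposite sides.

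The 10 genes lie on 5 chromosome arms of build dm6. Ssk is at 3L, 20188522 to 20189779, on the plus strand, with 5 distinct exons in 2 transcripts, and overlaps the gene CG42674 of the opposite strand without sharing an exon. mesh is at 3R, 31178389 to 31195762, on the minus strand, with 20 distinct exons in 5 transcripts, and Tsp2A at X, 1346553 to 1348143, on the plus strand, with 3 distinct exons. Each of these 2 overlaps 1 gene of the opposite strand, bnk and MTPAP, also without shared exons. scrib spans 67702 bases of 3R with 18 annotated transcripts and dlg1 40112 bases of X with 21, whereas kune is a single exon of 1060 bases on 2R. The strand setting of the authors' quantification is not given in the sources used here, so reads from overlapping genes cannot be assigned by strand with certainty.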

How the data were processed

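RNA was sequenced in 24 libraries, and the deposited tables hold 1 row per gene per library. Per the submitters' processing notes, the authors used STAR 2.7.1a and StringTie on dm6; the annotation release and the strand setting are not stated there. In 11 tables the authors' TPM sums over annotated genes, per the file headers. In the other 13 the deposited TPM column is scaled over loci assembled in each library, with annotated genes listed on top, so it is treated as a signal on the TPM scale, and annotated genes sum to between 881199 and 987040. Per the file headers, the deposited Coverage signal is the mean read depth per base, used only to estimate depth and to compare libraries. No read counts were given, so no count test was run.

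Genes were joined by identifier (17751 of 17830 and 17052 of 17137 identifiers matched the annotation tables). Values were tested as log2(TPM + 1) with limma 3.58.1 in R 4.3.3 (trend and robust), two-sided, on genes with a mean of at least 1 TPM, with p-values adjusted by the Benjamini-Hochberg method over all tested genes and calls at 0.05. On this scale the fold changes of genes with low TPM come out too small. Midgut libraries shared 1 fit of 12, and the Zn72D and E374A groups were fitted apart. Exact permutation tests were two-sided. The fitting script was tested on simulated data. The members, lists and tests were chosen with earlier results of these data known. Named genes of the wider lists are up to 4 called genes per list and direction with the largest fold change at a mean of at least 5 TPM; genes outside it (hoka, M6, udt, and single marker genes) were chosen after their values were seen. Alternatives were a pseudocount of 0.1, no filter, median-ratio scaling, the replicate number as a block, fitting 2 groups alone, leaving out libraries and, chosen after seeing the data, assembled loci and leaving out library 1 of both groups. Transcript length is the longest annotated transcript.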

Additional observations from a re-analysis of the deposited data

Results flagged for a closer look

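Over 30 combinations of a member and a midgut group, 3 had 1 library far from the rest by Dixon's test, which chance gives in about 1 in 20. Tsp2A had 90.1 TPM in 30-day lacZ library 1, where the nearest of the others had 36.1 TPM. scrib had 99.4 TPM in the same library, where the nearest had 68.6 TPM. Ssk had 132 TPM in 10-day lacZ library 1, above the nearest value of 109.6 TPM and still below every 30-day and Adar knockdown library. What set these libraries apart was not tested.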

How the results depend on the processing

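Over the alternatives run, no log2 fold change of a called member changed sign. Of the values for single members, 616 stayed on their side of the threshold, 11 passed it newly and 23 no longer passed. As analysed only 3 members with age and 2 with Adar knockdown were called. Most of the 616 are therefore uncalled values that stayed uncalled, and all 23 losses fall on those few calls. The number of members called with age was 3 as analysed, 1 with no filter on low values and 1 without library 1 of both groups, and between 1 and 3 when single libraries were left out. With Adar knockdown against 10-day lacZ it was 2 as analysed, 1 with no filter, 1 when only the 2 groups were fitted, 4 without library 1 of both groups, and between 1 and 4 when single libraries were left out. No share of all genes called is given for the midgut fits that left out libraries. With no filter 17134 genes were tested, which changes the adjustment; the cause of the other differences was not tested. With Zn72D knockdown it was 0 as analysed and between 0 and 1 when single libraries were left out. Adar knockdown against 30-day lacZ and labelled E374A against its control gave 0 under every alternative run. The correlation of deviations of same-numbered libraries was between -0.30 and 0.23; in the age comparison it was 0.225, 0.121, -0.080 and 0.217, so 3 of 4 pairs there passed 0.1, and in no comparison did every pair, so the numbers were not taken to pair the libraries. With the replicate number as a block, 3 members were called with age, 3 with Adar knockdown (mesh, limma, adjusted p = 0.0443) and 1 with Zn72D knockdown (Ssk, limma, adjusted p = 0.0183). Ssk was called with age and with Adar knockdown in 8 of 8 fits that left out 1 library and under 7 of 7 other alternatives. Over all genes, labelled E374A without labelled control 3 gave 228 higher and 102 lower calls, against 25 and 3 with it. Without depth as read counts, the counting error of low members such as sinu and kune is unknown.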
